A study of Mus musculus with 21 samples.

Results

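Fibronectin and 9 matricellular proteins of the mouse colon stroma were followed: Fn1, Tnc, Postn, Thbs1, Thbs2, Sparc, Sparcl1, Ctgf, Cyr61 and Mgp. They were taken by gene symbol from a single-cell count matrix, where all 10 were found among 31053 genes, and by gene position from the open-chromatin peak lists of 4 sorted stromal populations, where they are 10 of 21853 protein-coding genes. Annotation names Ctgf as Ccn2 and Cyr61 as Ccn1.

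The series holds 21 samples in 9 groups, all from C57BL/6 mice. The single-cell library came from the colon lamina propria of female wild-type mice aged 12 weeks on day 3 (D3) of 2% dextran sulfate sodium (DSS), a polymer in the drinking water that injures the colon epithelium, and its label describes the cells as positive for gp38 and CD90. The 8 ATAC-seq libraries (assay for transposase-accessible chromatin) came from male mice aged 12 weeks, for which the labels name no treatment, as 2 libraries for each of 4 populations called MRISC, CD34 SP, CD138 and Myofibroblast, sorted from gp38-positive colon cells without CD45, Epcam or CD31. The 12 bulk RNA libraries were not analysed here. MRISC stands for the Map3k2-regulated intestinal stromal cells of the study's title, and the labels do not name the antibodies that define it. Each group offers 1 sample for comparison, a single library of cells or 1 peak list per population, and the number of mice behind it is not given, so every value below is a description and none carries a test between samples.

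Fibronectin is a large secreted glycoprotein that cells assemble into fibrils through integrins. Matricellular proteins are secreted into the same matrix but build little of its framework: they bind collagens, growth factors, proteases and integrins, and many of them are abundant in embryonic, wounded or fibrotic tissue. In the gut, their main source is the mesenchyme under the epithelium, that is fibroblasts, myofibroblasts and smooth muscle cells.

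After filtering, 11376 of 11484 barcodes were kept, with a median of 6052 unique molecular identifiers (UMIs, each counting 1 captured RNA molecule) and 2288 genes. Clustering without the 10 genes gave 12 clusters, of which 8 were stromal and held 10966 cells. In the stromal clusters Pdpn (gp38) lay at 110 to 399 UMIs per 1000000 UMIs (CPM) and Thy1 (CD90) at 36.4 to 212 CPM, both named in the label of this library. Ptprc (CD45) reached at most 0.117 CPM, Epcam 1.92 CPM and Pecam1 (CD31) 1.92 CPM, the genes that the ATAC-seq sort left out. Clusters with immune, epithelial or endothelial markers were not counted as stromal, so these low levels were partly set by that choice. From markers, cluster 1 (2556 cells; Kcnk2, Adamdec1) was lamina propria fibroblast-like, cluster 4 (1115 cells; Myh11, Actg2) was myofibroblast or smooth muscle-like, clusters 6 (893 cells; Pcolce2, Ackr4) and 7 (467 cells; Ptx3, Wt1) were Cd34 Cd81 fibroblast-like, and cluster 10 (78 cells; Wif1, Sox6) was crypt-top fibroblast-like. The name Cd34 Cd81 fibroblast-like is that of a marker list, and in clusters 6 and 7 Cd81 was 2-fold over other cells but Cd34 was not. Cd34 had 627 and 666 CPM there, beside 617 CPM in cluster 2 and 696 CPM in cluster 3. Clusters 2 (2520 cells; Hapln1, Spock3), 3 (2301 cells; Cxcl13, Eln) and 5 (1036 cells; Saa3, Mmp10, Lcn2) stayed unnamed, and no cluster was matched to a sorted population.

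All 10 genes exceeded 20 CPM over the kept cells, against 18.9% of all genes. Stray RNA was measured in empty droplets and in epithelial cells. In empty droplets, that is barcodes of 1 to 100 UMIs, the level in kept cells divided by that in the droplets lay between 0.785 for Sparcl1 and 1.28 for Ctgf, so the free RNA carried the 10 messages in about the proportions of the cells. Cluster 12, a group of 24 cells led by epithelial genes such as Epcam and Reg3b, gives the level that such RNA reached in cells that should lack these genes, at a median depth of 20290 UMIs. The stromal clusters had medians of 5119 to 7054 UMIs. An equal amount of stray RNA per droplet would thus have a lower CPM in cluster 12, which makes its CPM a low estimate of background. Another 32 barcodes with T or NK cell genes (cluster 11) had Sparc at 4780 CPM, Postn at 1304 CPM, Mgp at 1141 CPM, Fn1 at 748 CPM and Tnc at 93.1 CPM, all within the range of the stromal clusters. The comparisons with background below use cluster 12, and against cluster 11 fewer stromal levels would stand above it. Doublets were not removed, and their part in the levels was not tested. The highest cluster named for each gene below depends on the clustering: with the 10 genes allowed among the variable genes, it was the same for 4 (Tnc, Postn, Ctgf and Mgp).

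Fn1, the fibronectin gene, had 859 CPM over all kept cells (exact Poisson 95% interval 852 to 866), against 924 CPM in empty droplets and 173 CPM in cluster 12. It had its highest level in cluster 5, the cells with Saa3, Mmp10 and Lcn2, at 1257 CPM (1232 to 1283), followed by cluster 2 at 1197 CPM (1181 to 1214). The other stromal clusters lay at 926 CPM in cluster 10, 767 CPM in cluster 1, 760 CPM in cluster 7, 678 CPM in cluster 6, 617 CPM in cluster 3 and 602 CPM in cluster 4. Fn1 was thus counted in every stromal cluster with a narrow span, the highest level being 2.09 times the lowest. Clusters 6, 3 and 4 lay below both cluster 11, at 748 CPM, and empty droplets, and the part of free RNA in these levels was not tested. The intervals of clusters 1 and 7 overlapped, as did those of clusters 3 and 4 at the low end. With each cell thinned to 3000 UMIs, 81.6% of kept cells had an Fn1 UMI, against 34.8% of 23 cells of cluster 12.

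By number, Fn1 had more CD34 SP peaks than any other of the 10 genes, in a window of 87.7 kb. Its CD34 SP density was 3.65 peaks per 10 kb, above that of 95.5% of protein-coding genes but not the highest of the 10, which was 5.13 at Mgp. The Fn1 gene body with 10 kb on both sides held 14 MRISC peaks, 32 CD34 SP peaks, 19 CD138 peaks and 11 Myofibroblast peaks. Of the 32 CD34 SP peaks, 21 overlapped no peak of another population (called specific below), against 4 of the MRISC, 8 of the CD138 and 7 of the Myofibroblast peaks, and 2 of the 21 scored above the median of their list. Outside promoters, 13 of the 32 touched an exon, 9 of them specific. Fn1 is on chromosome 1 (build mm10, 71585520 to 71653200, minus strand), and its promoter region at chr1:71651764-71654338 was open in all 4 populations. Its score was above 98.6% of MRISC, 97.2% of CD34 SP, 97.3% of CD138 peaks and 95.1% of Myofibroblast peaks. The best-scored CD34 SP-specific region of Fn1 lay in an intron and is shown because CD34 SP held most specific peaks of the gene. Its central 200 bases are chr1:71643472-71643671, read 5′ to 3′ on the minus strand from GRCm38.p6, and capitals mark a match to the TEAD word GGAATG.
Fn1, CD34 SP only: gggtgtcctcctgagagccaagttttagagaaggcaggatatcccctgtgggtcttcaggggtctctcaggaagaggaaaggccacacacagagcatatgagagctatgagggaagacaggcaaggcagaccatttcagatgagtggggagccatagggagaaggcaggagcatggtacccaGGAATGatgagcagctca
Its score was above 63.2% of the CD34 SP peaks, a middle rank, and the other 20 specific peaks scored lower.

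Tnc encodes tenascin C, a hexameric glycoprotein that loosens the attachment of cells to fibronectin. It was highest in the lamina propria fibroblast-like cells: cluster 1 had 237 CPM (230 to 244) and cluster 10, the crypt-top fibroblast-like cells, had 192 CPM (156 to 233), with overlapping intervals. Levels were 115 CPM in cluster 5, 74.9 CPM in cluster 4, 61.5 CPM in cluster 7 and 59.1 CPM in cluster 6, the last 3 also overlapping as neighbours. Clusters 2 and 3 had 18.8 and 16.7 CPM, below the 30.3 CPM of cluster 12, which puts both at background. A Tnc UMI was found in 43.0% of cluster 1 cells after thinning, against 3.43% in cluster 2, 2.65% in cluster 3 and 8.70% in cluster 12.

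Of the 10 genes, Tnc was the one with its largest number of specific peaks in Myofibroblast, at 11 of 22, beside 3 of 13 MRISC peaks, 7 of 18 CD34 SP peaks and 6 of 18 CD138 peaks. It lies on chromosome 4 (63959785 to 64047015, minus strand), and most of its regions, 32 of 40, were intronic. The strongest Myofibroblast-specific region had a score above 91.4% of that list, which is the highest rank of the 181 regions of the 10 genes that were open in 1 population. Its central 200 bases (chr4:64002254-64002453, minus strand) and the 250 bases before the outermost RefSeq start of Tnc (chr4:64047016-64047265, minus strand, GRCm38.p6) follow, with capitals at the TATA word TATAAA.
Tnc, Myofibroblast only: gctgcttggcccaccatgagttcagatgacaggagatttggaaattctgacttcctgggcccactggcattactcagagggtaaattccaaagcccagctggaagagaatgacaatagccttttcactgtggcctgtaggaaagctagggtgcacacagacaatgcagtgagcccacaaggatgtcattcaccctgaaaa
Tnc promoter: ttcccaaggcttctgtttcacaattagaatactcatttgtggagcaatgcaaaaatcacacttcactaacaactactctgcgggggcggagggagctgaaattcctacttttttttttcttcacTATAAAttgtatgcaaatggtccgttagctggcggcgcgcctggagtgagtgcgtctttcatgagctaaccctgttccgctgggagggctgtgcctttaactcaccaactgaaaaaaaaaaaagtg
The intronic region held none of the words searched for. The promoter held TATAAA at bases 125 to 130, about midway along the stretch. In the 250 bases before another RefSeq start of Tnc (chr4:64046937-64047186), the same word lies at bases 46 to 51.

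Postn encodes periostin, a secreted protein that links collagen, fibronectin and tenascin C. Myofibroblast or smooth muscle-like cluster 4 had 1391 CPM (1364 to 1417) and cluster 2 had 1388 CPM (1371 to 1406), 2 levels whose intervals overlap, and cluster 2 was the higher one as a mean over cells. Clusters 1 and 5 followed at 1242 and 1149 CPM, then clusters 3 and 10 at 717 and 702 CPM, whose intervals also overlap. The Cd34 Cd81 fibroblast-like clusters 6 and 7 had the lowest levels, 557 and 472 CPM, while cluster 12 had 104 CPM and empty droplets 1017 CPM. The highest level was 2.95 times the lowest, and clusters 6 and 7, the lowest for Postn, were the highest for Thbs1 and Cyr61 described below. The Postn message was found in 86.2% of thinned kept cells, against 8.70% of cluster 12.

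The Postn locus was densest in CD34 SP. On chromosome 3 (54361109 to 54391037, plus strand) it held 25 peaks in CD34 SP, 16 of them specific, against 11 MRISC, 10 CD138 and 6 Myofibroblast peaks with 1, 3 and 2 specific. That is 5.01 peaks per 10 kb in CD34 SP, a density above that of 98.6% of protein-coding genes, and 1.20 per 10 kb in Myofibroblast, above 58.7% of them. The specific CD34 SP peaks were weak, and 0 of the 16 scored above the median of their list, against 6 of the 9 shared ones. The 250 bases before the RefSeq start nearest to the annotated gene start (chr3:54360857-54361106, plus strand, GRCm38.p6), open in all 4 populations, hold TATAAA at bases 225 to 230.
Postn promoter: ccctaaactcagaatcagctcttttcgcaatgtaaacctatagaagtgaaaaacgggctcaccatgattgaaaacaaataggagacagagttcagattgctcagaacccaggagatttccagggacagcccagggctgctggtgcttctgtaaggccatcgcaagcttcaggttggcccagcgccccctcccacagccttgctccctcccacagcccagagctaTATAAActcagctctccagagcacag
This word stands near the end of the stretch, close to the annotated start. The 250 bases before another RefSeq start, farther upstream (chr3:54359017-54359266), hold none of the words searched for.

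**Figure D1:**
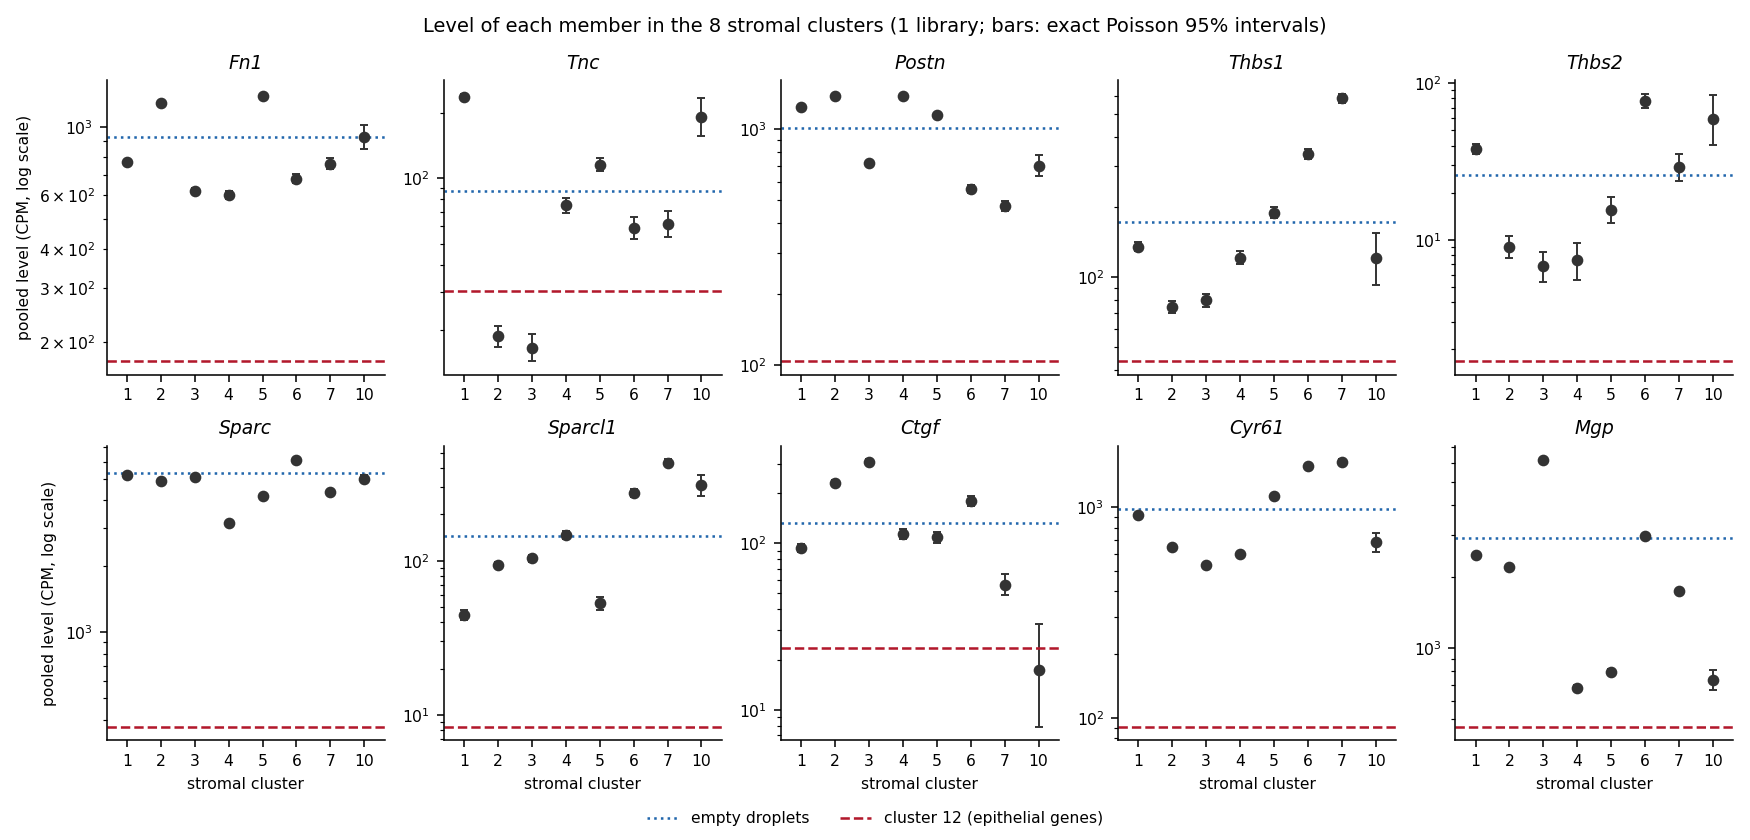
Pooled level of each gene (CPM, log axis, own scale per panel) in the 8 stromal clusters of the single library, with exact Poisson 95% intervals; the dotted line is the level in empty droplets and the dashed line that in cluster 12, which has epithelial genes. Tnc in clusters 2 and 3 (18.8 and 16.7 CPM) and Ctgf in cluster 10 (17.3 CPM) lie below the dashed line, and Thbs1 and Cyr61 share their 3 highest clusters, 7, 6 and 5.

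Thrombospondins 1 and 2 are trimeric glycoproteins that bind CD47 and integrins, and thrombospondin 1 can release TGF-beta from its latent complex. Thbs1 was highest in the Cd34 Cd81 fibroblast-like cells, at 586 CPM in cluster 7 (560 to 612) and 339 CPM in cluster 6 (322 to 355). Levels were 189 CPM in cluster 5, 135 CPM in cluster 1, 121 CPM in clusters 4 and 10, 79.5 CPM in cluster 3 and 74.6 CPM in cluster 2, beside 43.7 CPM in cluster 12. The highest level was 7.85 times the lowest, and the pairs of neighbours 4 and 10, and 3 and 2, had overlapping intervals. After thinning, 55.3% of cluster 7 cells and 36.5% of cluster 6 cells had a Thbs1 UMI. The shares of clusters 2 and 3, 12.6% and 15.4%, were under the 17.4% of cluster 12, which rests on 4 of 23 cells (4.95% to 38.8%). Their levels were above that of cluster 12 with no overlap of the intervals, which cover counting error only. Share and level thus do not place these clusters alike against the background. Cluster 12 is also deeper, at a median of 20290 UMIs against 6534.5 in cluster 2 and 5147 in cluster 3. The same amount of stray RNA per droplet would have a lower CPM there, so the levels do not settle whether clusters 2 and 3 exceed background.

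Thbs2 was a sparse message, with 21.7 CPM over all kept cells, 26.1 CPM in empty droplets and 1.68 CPM in cluster 12, from 1 UMI (0.0425 to 9.36 CPM). It peaked in cluster 6 at 77.6 CPM (70.0 to 85.9) and in cluster 10 at 59.4 CPM (40.4 to 84.4), followed by cluster 1 at 38.0 CPM, cluster 7 at 29.1 CPM and cluster 5 at 15.6 CPM. Clusters 2, 4 and 3 had 8.98, 7.39 and 6.78 CPM, within the interval of cluster 12, so these levels are not told apart from background. The 2 paralogs thus shared a high level in cluster 6, but cluster 7, where Thbs1 was highest, came after clusters 6, 10 and 1 for Thbs2. Intervals of neighbours overlapped except between clusters 7 and 5 and between clusters 5 and 2. A Thbs2 UMI was found in 5.29% of thinned kept cells and in 0 of 23 cells of cluster 12, which allows a share of up to 13.0% by a limit of 3 counts and 14.8% by the exact Clopper-Pearson bound.

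Thbs1 chromatin was open at more places in MRISC and CD34 SP than in CD138 and Myofibroblast. Its window on chromosome 2 (gene at 118111876 to 118127133, plus strand) held 20 MRISC and 18 CD34 SP peaks, against 3 CD138 and 7 Myofibroblast peaks. Few of them were specific, 1, 5, 0 and 4, and MRISC and CD34 SP shared places: 9 of the 23 regions at Thbs1 were open in exactly those 2 populations. The shared regions ran along the gene, and 10 of the MRISC and 10 of the CD34 SP peaks touched an exon outside the promoter, against 0 of the CD138 and 2 of the Myofibroblast peaks. The promoter itself was open in every list, at chr2:118109972-118113594, with scores above 95.4% of MRISC, 94.5% of CD34 SP, 96.4% of CD138 peaks and 93.7% of Myofibroblast peaks.

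Thbs2, on chromosome 17 (14665500 to 14694235, minus strand), had 23 MRISC peaks, 16 CD34 SP peaks, 7 CD138 peaks and 10 Myofibroblast peaks, of which 11, 7, 1 and 5 were specific. Its promoter peak was 904 bp and 1199 bp wide in MRISC and CD34 SP, but 250 bp and 264 bp in CD138 and Myofibroblast, where its score was above 73.5% and 74.7% of the list. The 250 bases before its start (chr17:14694263-14694512) and the central 200 bases of its best-scored MRISC-specific region (chr17:14696768-14696967), which lies upstream, both on the minus strand of GRCm38.p6, are shown because MRISC held the most specific peaks of this gene.
Thbs2 promoter: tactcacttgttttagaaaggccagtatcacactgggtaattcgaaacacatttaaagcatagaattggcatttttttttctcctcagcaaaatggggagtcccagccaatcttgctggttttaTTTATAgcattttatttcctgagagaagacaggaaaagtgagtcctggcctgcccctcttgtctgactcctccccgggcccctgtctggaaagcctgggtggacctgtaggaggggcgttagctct
Thbs2, MRISC only: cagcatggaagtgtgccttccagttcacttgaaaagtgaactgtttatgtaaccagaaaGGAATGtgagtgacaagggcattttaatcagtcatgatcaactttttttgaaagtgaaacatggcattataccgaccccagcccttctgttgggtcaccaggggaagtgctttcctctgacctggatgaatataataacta
Capitals mark TATAAA on the opposite strand in the promoter (bases 125 to 130) and GGAATG in the distal region (bases 60 to 65), whose score was above 65.2% of the MRISC peaks.

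Sparc, also called osteonectin, binds collagen and calcium and is a common product of cells that lay down collagen. It had 4745 CPM over all kept cells (4729 to 4761) and was found in 99.7% of them after thinning, against 371 CPM and 47.8% of cells in cluster 12. Cluster 6 had 6076 CPM and cluster 1 had 5223 CPM; clusters 3, 10 and 2 had 5117, 5024 and 4872 CPM, clusters 7 and 5 had 4343 and 4162 CPM, and cluster 4 had 3167 CPM. The span of 1.92 times was the narrowest among the 10 genes, with the smooth muscle-like cells lowest, and cluster 10 overlapped both of its neighbours, clusters 3 and 2.

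Sparc, on chromosome 11 (55394500 to 55423183, minus strand), was the gene with most regions open in all 4 populations, 6 of its 38. MRISC had 29 peaks, CD34 SP 21, CD138 13 and Myofibroblast 19, with 11, 2, 1 and 5 specific. In MRISC and in CD34 SP, the highest score of all regions of the 10 genes was not at a promoter but upstream of Sparc. This region, at chr11:55427899-55429151, lies before the outermost start of the gene. Promoters ranked higher in the other lists, such as that of Fn1 in CD138 (97.3%) and that of Cyr61 in Myofibroblast (97.8%). The score of the upstream region was above 99.1% of MRISC peaks, 98.7% of CD34 SP peaks, 96.3% of CD138 peaks and 97.5% of Myofibroblast peaks. Its central 200 bases in MRISC (chr11:55428431-55428630, minus strand, GRCm38.p6) held none of the words searched for, so no capitals appear.
Sparc, upstream: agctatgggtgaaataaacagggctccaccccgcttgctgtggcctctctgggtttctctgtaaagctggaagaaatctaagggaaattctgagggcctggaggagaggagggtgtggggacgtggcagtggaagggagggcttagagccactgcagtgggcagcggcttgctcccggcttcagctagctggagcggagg
No other protein-coding gene reaches into this window. By contrast, Atic reaches into the window of Fn1, Fsip1 into that of Thbs1 and Gm17660 into that of Sparcl1. Peaks in those windows were counted for the member all the same.

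Sparcl1, or hevin, is the closest relative of Sparc. It had 113 CPM over all kept cells and 8.40 CPM in cluster 12, and its order differed from that of Sparc. Cluster 7 had 430 CPM (408 to 453), cluster 10 had 307 CPM (261 to 358) and cluster 6 had 274 CPM (260 to 289). Cluster 4 had 147 CPM, cluster 3 had 103 CPM, cluster 2 had 94.0 CPM, cluster 5 had 52.9 CPM and cluster 1 had 44.6 CPM. Cluster 1 was therefore second for Sparc and last for Sparcl1, with a span of 9.64 times for Sparcl1. Intervals overlapped between clusters 10 and 6, 3 and 2, and 5 and 1. Its locus on chromosome 5 (104079111 to 104113733, minus strand) had 12 MRISC peaks, 9 CD34 SP peaks, 10 CD138 peaks and 13 Myofibroblast peaks, with 5, 1, 3 and 4 specific.

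Ctgf and Cyr61 are the CCN proteins 2 and 1, short-lived messages that many cell types induce soon after serum, stretch or wounding, and textbook targets of the YAP-TEAD pathway. The 2 genes did not share an order. Ctgf was highest in cluster 3, with Cxcl13 and Eln, at 309 CPM (299 to 319), and in cluster 2 at 231 CPM (224 to 239). It had 179 CPM in cluster 6, 113 CPM in cluster 4, 108 CPM in cluster 5, 93.7 CPM in cluster 1 and 56.5 CPM in cluster 7, while 17.3 CPM in cluster 10 was under the 23.5 CPM of cluster 12. The order was thus led by clusters in which Cyr61 was low, and clusters 4 and 5 had overlapping intervals.

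Cyr61 was highest in the Cd34 Cd81 fibroblast-like clusters 7 and 6, at 1641 CPM (1598 to 1685) and 1561 CPM (1526 to 1596). Cluster 5 had 1125 CPM, cluster 1 had 921 CPM, cluster 10 had 683 CPM, cluster 2 had 649 CPM, cluster 4 had 597 CPM and cluster 3 had 531 CPM, beside 90.8 CPM in cluster 12, and the intervals of clusters 10 and 2 overlapped. Its UMIs were unevenly spread over the cells of a cluster. In cluster 1, 60.2% of thinned cells had a Cyr61 UMI where an even spread of the same UMIs would give 93.8%, and the variance over the mean was between 3.66 and 7.64 in the 8 clusters, against 1.61 to 2.06 for Fn1. The summed level of 14 immediate early genes (Fos, Jun, Egr1 and others) was highest in the same clusters 7 and 6, at 30372 and 27809 CPM, and lowest in cluster 2, at 9101 CPM. Its part in the Thbs1 and Cyr61 levels was not tested.

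Cyr61 had the widest promoter peak of the 10 genes in CD34 SP and in MRISC, but not in CD138, where that of Thbs1 was wider, or in Myofibroblast, where that of Ctgf was. A promoter peak is taken as any peak within 1 kb of an annotated start. In CD34 SP, 1 peak of 11467 bp (chr3:145642610-145654076) covered the whole gene, which is 3.01 kb long on the minus strand of chromosome 3 (145646976 to 145649981), and was the third widest of 143411 peaks in that list. In MRISC the promoter peak was 5062 bp wide, the 28th of 177054. In CD138 and Myofibroblast it was 714 and 590 bp wide, with 53.9% and 43.7% of genes having narrower promoter peaks, and the stretch around it was split into separate peaks. The score of the Cyr61 promoter ranked lower among genes than its width in CD34 SP and MRISC, but not in CD138 and Myofibroblast: 79.1% of genes in CD34 SP and 51.1% in MRISC had lower ones, against 54.0% in CD138 and 72.3% in Myofibroblast. The 250 bases before the Cyr61 start (chr3:145649986-145650235, minus strand, GRCm38.p6) hold the TEAD word on the opposite strand at bases 148 to 153 and TATAAA at bases 226 to 231.
Cyr61 promoter: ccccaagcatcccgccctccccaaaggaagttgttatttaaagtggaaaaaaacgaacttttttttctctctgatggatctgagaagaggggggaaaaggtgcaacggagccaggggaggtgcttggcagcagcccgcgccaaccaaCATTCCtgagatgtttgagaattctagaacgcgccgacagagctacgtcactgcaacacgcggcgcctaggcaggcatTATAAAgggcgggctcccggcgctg
Of 32851 RefSeq promoters of the same length, 12.6% hold GGAATG and 12.4% hold TATAAA on either strand.

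Ctgf, on chromosome 10 (24595442 to 24598683, plus strand), also had wide promoter peaks, of 2435 bp (MRISC) and 3190 bp (CD34 SP), against 818 bp (CD138) and 1441 bp (Myofibroblast). Its window held 5 MRISC peaks, 10 CD34 SP peaks, 9 CD138 peaks and 4 Myofibroblast peaks. Cyr61 had 10 MRISC, 9 CD34 SP, 11 CD138 peaks and 14 Myofibroblast peaks. The number was lowest in CD34 SP but the bases under the peaks were most there: 11181 for MRISC and 15211 for CD34 SP, against 4552 for CD138 and 5753 for Myofibroblast.

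**Figure D2:**
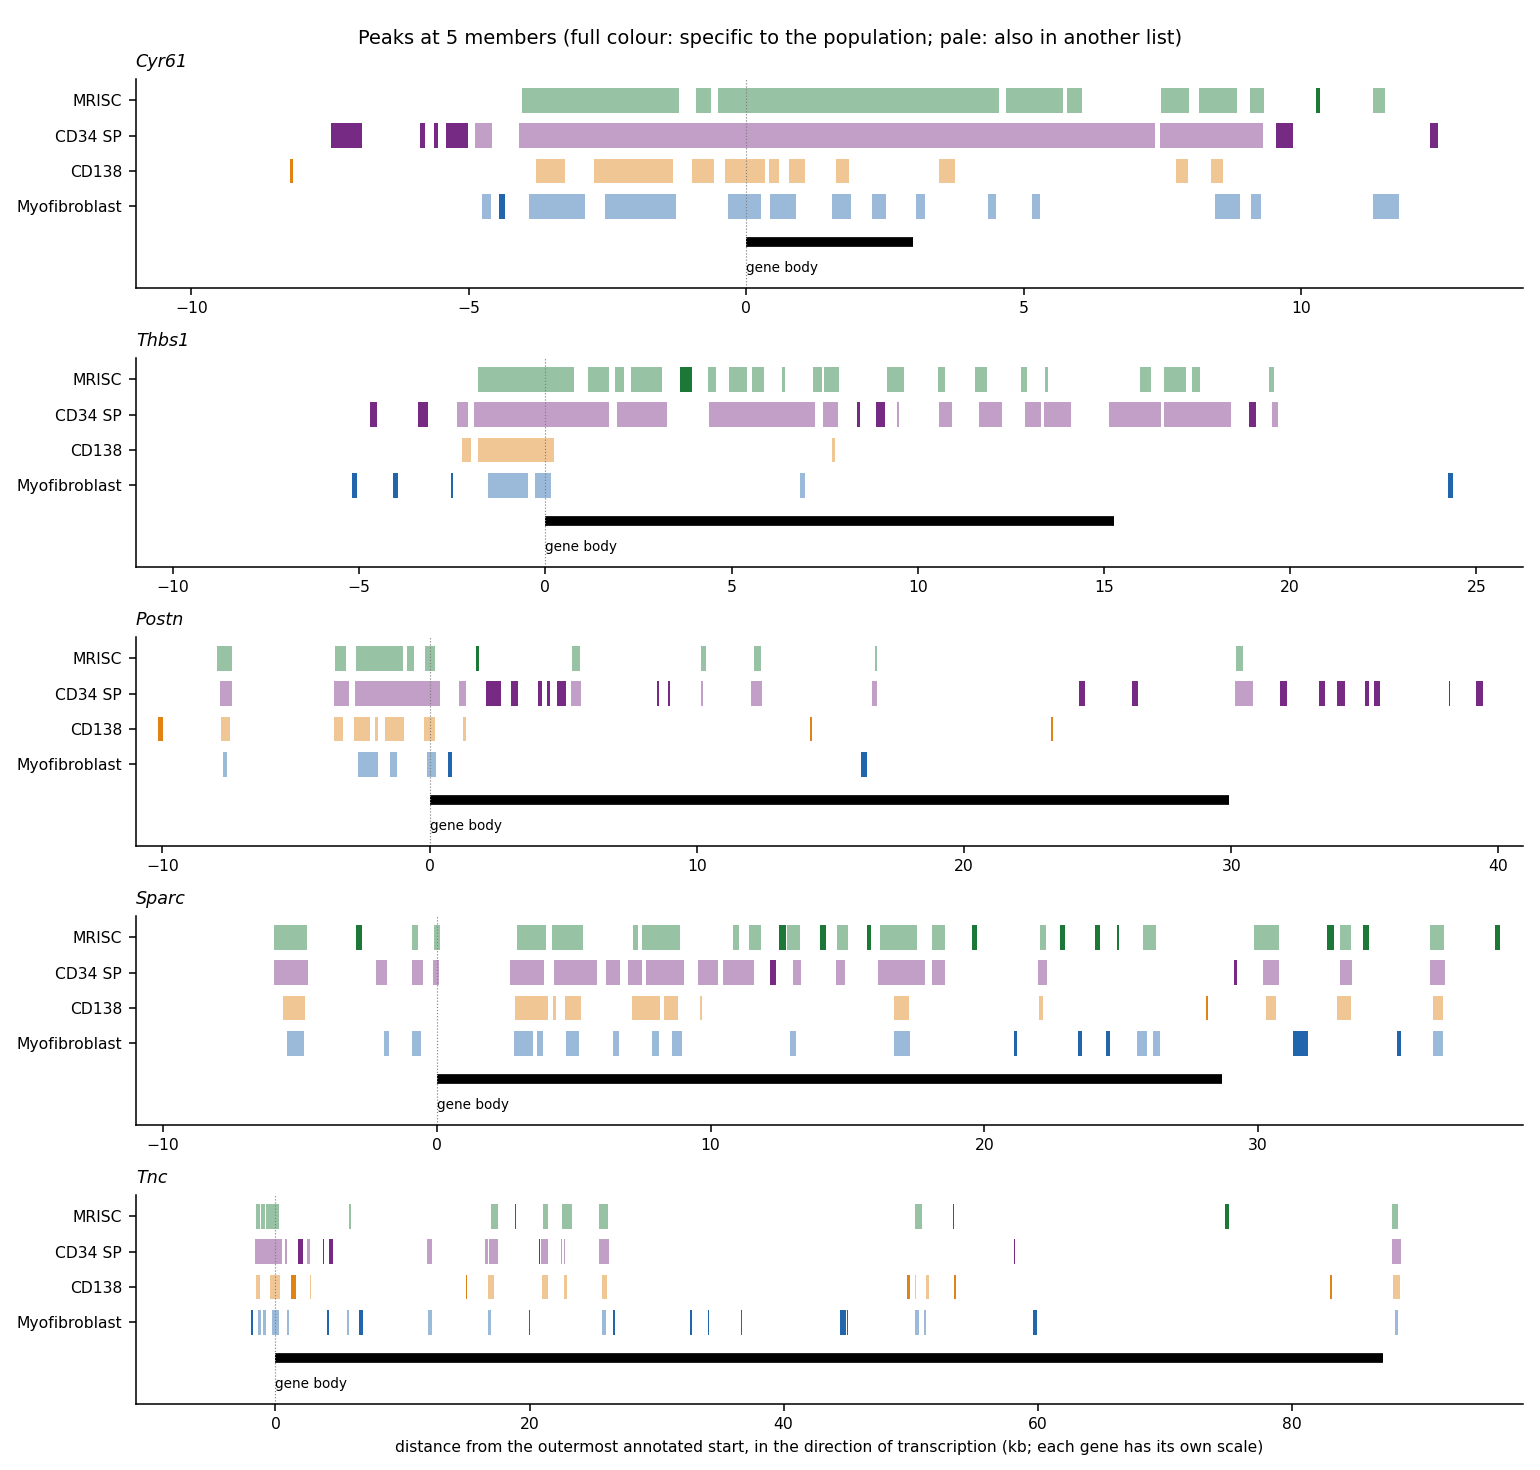
Peaks of the 4 populations at Cyr61, Thbs1, Postn, Sparc and Tnc by distance from the outermost annotated start (kb, in the direction of transcription), drawn to scale, with the gene body as a black bar; full colour marks peaks found in 1 list and pale colour those shared with another. A single CD34 SP peak of 11467 bp covers Cyr61, and the 20 MRISC and 18 CD34 SP peaks at Thbs1 run along the gene where CD138 has 3 and Myofibroblast 7.

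Mgp, matrix Gla protein, keeps soft tissue from calcifying and needs vitamin K-dependent carboxylation. It had 2649 CPM over all kept cells and was highest in cluster 3, the cells with Cxcl13 and Eln, at 6193 CPM (6149 to 6238), 2.08 times the 2974 CPM of cluster 6. Clusters 1, 2 and 7 had 2457, 2199 and 1734 CPM, and clusters 5, 10 and 4 had 792, 734 and 680 CPM with overlapping neighbours, beside 466 CPM in cluster 12. Its UMIs were unevenly spread within clusters, with a variance over mean of 3.80 to 15.7, a measure that also grows with the level. In cluster 3, 99.1% of thinned cells had an Mgp UMI, against 60.9% of cluster 12, so its share says little where the level is low: cluster 4, at 64.7%, stood close to that background.

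The Mgp locus, on chromosome 6 (136872435 to 136875823, minus strand), had 5 MRISC peaks, 12 CD34 SP peaks, 5 CD138 peaks and 5 Myofibroblast peaks. Its best promoter scores, above 85.8%, 84.9%, 79.4% and 79.3% of the 4 lists in that order, were lower than those of most of the genes described here, and its widest promoter peak was 759 bp in MRISC and 689 bp in CD34 SP.

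Set side by side, the 10 genes had a higher median peak density than genes at large in every population, with the highest in CD34 SP. The median density was 2.20 MRISC peaks, 4.11 CD34 SP peaks, 2.07 CD138 peaks and 2.05 Myofibroblast peaks per 10 kb, against medians of 1.01, 0.824, 1.13 and 0.982 over all protein-coding genes. All 10 had a promoter peak in each population, against 67.4%, 65.1%, 68.3% and 65.1% of genes in those lists and 57.7% with one in all 4. Of 142 MRISC, 170 CD34 SP, 105 CD138 and 111 Myofibroblast peaks, 37, 76, 26 and 42 were specific. As shares these were 26.1%, 44.7%, 24.8% and 37.8%, against 41.8%, 33.4%, 49.3% and 53.1% of the peaks in all gene windows, so the share at these genes was above that at all genes for CD34 SP and below it for the other 3 lists.

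Gene by gene, CD34 SP held the most specific peaks at 6 of the 10 (Fn1, Postn, Thbs1, Ctgf, Cyr61 and Mgp), against 9.14% of all genes. MRISC did so at 3 (Thbs2, Sparc and Sparcl1), against 15.3%, Myofibroblast at 1 (Tnc), against 20.9%, and CD138 at 0, against 25.7%. MRISC and CD34 SP together held more peaks than CD138 and Myofibroblast together at 7 of the 10, against 33.4% of genes, and more specific peaks at 8, against 25.9%. Under 2 other settings CD34 SP did not lead in specific peaks, and under the first of them not in all peaks either. When the lists were cut to peaks above their median score, 90 MRISC, 76 CD34 SP, 64 CD138 and 70 Myofibroblast peaks were left, of which 14 MRISC, 16 CD34 SP, 9 CD138 and 23 Myofibroblast peaks were specific. When peaks went to whichever gene starts nearest, CD34 SP had 135 specific peaks, CD138 153 and Myofibroblast 142. In all peaks CD34 SP still led there, with 399 against 370 for MRISC, 379 for CD138 and 286 for Myofibroblast.

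**Figure D3:**
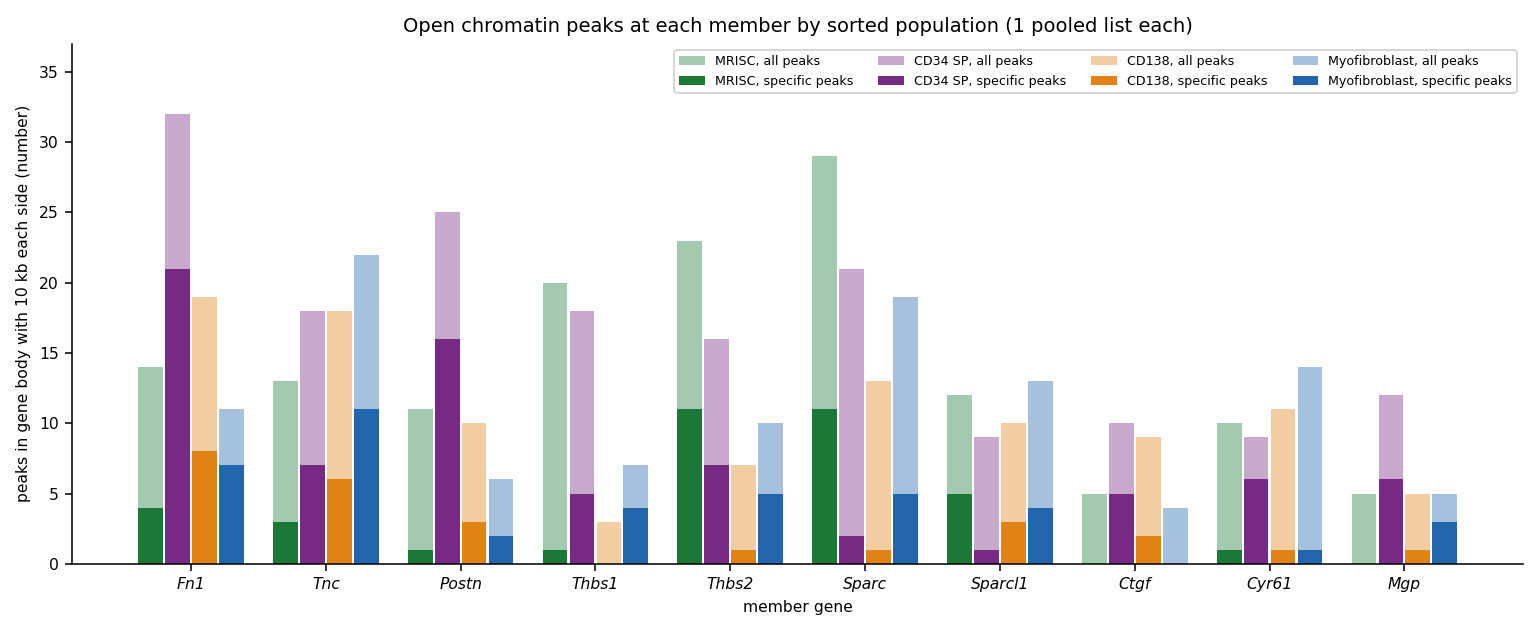
Number of peaks in the gene body with 10 kb on both sides, by gene and population (1 list each); the pale bar is all peaks and the full bar the part that overlaps no other list. CD34 SP has 32 peaks at Fn1 and 25 at Postn, of which 21 and 16 are specific, and 11 of the 42 Myofibroblast-specific peaks are at Tnc.

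Merged over the 4 lists, the peaks formed 282 regions. Regions open in CD34 SP alone made up 27.0% of them, against 11.7% of the regions in the windows of all protein-coding genes. Regions open in MRISC and CD34 SP alone made up 9.57%, against 3.96%. Those open in CD138 alone made up 9.22%, against 23.7%, and those in all 4 populations 10.3%, against 9.10%. Outside promoters, 17.6% of MRISC and 21.6% of CD34 SP peaks at the 10 genes touched a protein-coding exon, against 12.6% and 12.9% of peaks in all gene windows. These shares were 14.0% for CD138 and 15.7% for Myofibroblast, against 10.4% and 11.7%.

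The median promoter peak of the 10 genes was wide in CD34 SP, but not that of every gene. Mgp (689 bp), Sparcl1 (1153 bp) and Thbs2 (1199 bp) lay below the CD34 SP median of all genes. For MRISC the median of the widest promoter peak was 1246 bp, for CD34 SP 2348 bp, for CD138 784 bp and for Myofibroblast 572 bp, against 1100, 1229, 676 and 648 bp over all genes with such a peak. A promoter peak over 1 kb was found at 7 of the 10 genes in MRISC, against 57.6% of genes. In CD34 SP, 9 of the 10 had one, against 65.0%, and 5 were beyond the 90th percentile of 2235 bp (Fn1, Postn, Thbs1, Ctgf and Cyr61). For CD138, 3 of the 10 had one over 1 kb, against 22.0%, and for Myofibroblast 3, against 19.3%. In MRISC, CD138 and Myofibroblast, 3, 1 and 2 of the 10 were beyond their 90th percentiles of 1969, 1265 and 1195 bp. The CD34 SP list has the fewest and widest peaks of the 4, with a median width of 305 bp, against 227 bp (MRISC), 174 bp (CD138) and 162 bp (Myofibroblast), and its part in the widths at the 10 genes was not tested.

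**Figure D4:**
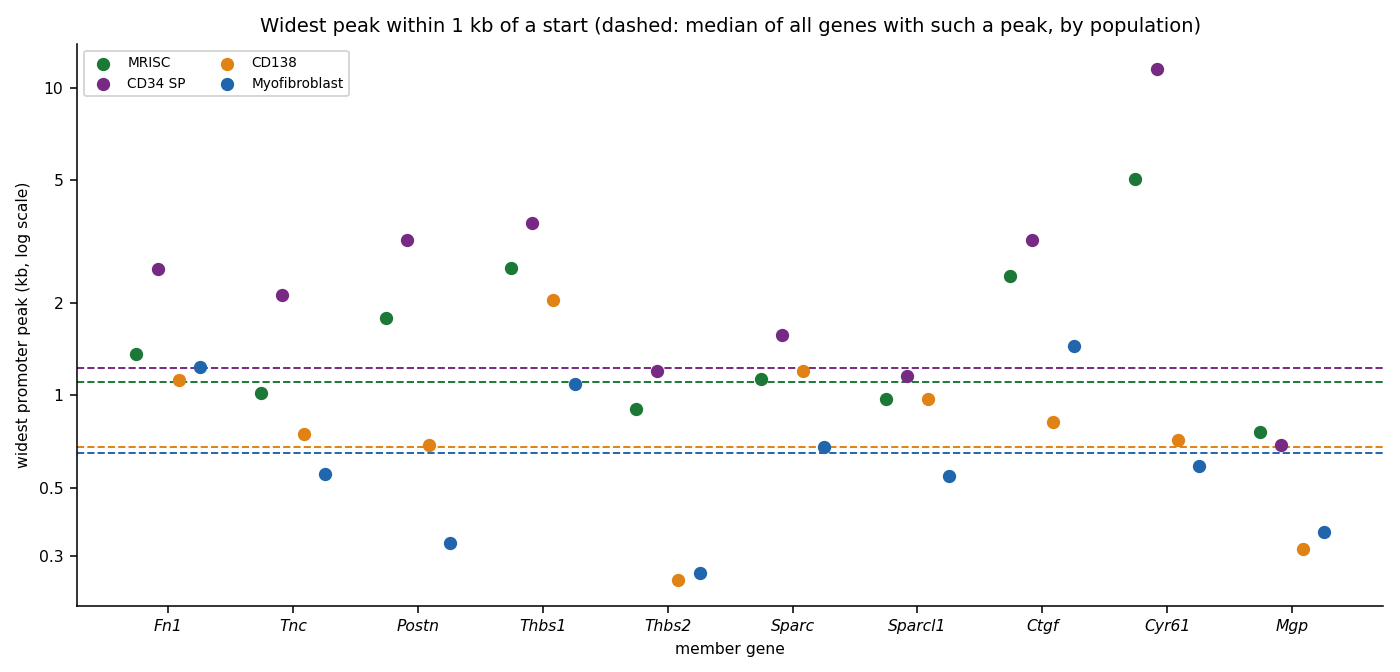
Widest peak within 1 kb of an annotated start (kb, log axis) for each gene and population; dashed lines are the medians over all genes with such a peak. In CD34 SP, 9 of the 10 genes lie above 1 kb and Cyr61 reaches 11467 bp, while Thbs2 and Mgp lie below 0.4 kb in CD138 and Myofibroblast.

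Words of known transcription factors were counted in the central 200 bases of every peak, on both strands. The TEAD word GGAATG was in 17.6% of the MRISC peaks at the 10 genes (exact Clopper-Pearson 95% interval 11.7% to 24.9%), 18.2% of the CD34 SP, 16.2% of the CD138 peaks and 18.0% of the Myofibroblast peaks, against 13.0%, 13.5%, 11.9% and 12.0% of all peaks. The AP-1 word TGANTCA was in 16.9%, 18.8%, 15.2% and 13.5%, against 12.6%, 15.2%, 9.91% and 9.43%. The RUNX word TGTGGT was in 10.6%, 15.3%, 14.3% and 13.5%, against 15.2%, 15.5%, 16.4% and 15.1%. The intervals of these 3 words took in the share of all peaks in each of the 4 lists. They count each peak as independent although the peaks lie at only 10 genes, so they give no test of a difference. TATAAA was in 14.8%, 11.8%, 15.2% and 13.5%, against 9.25%, 9.62%, 11.1% and 11.1%. The CRE word TGACGTCA was in 1.41%, 0.588%, 0% and 2.70%, against 0.444%, 0.494%, 0.370% and 0.403%, and the CArG box in 0%, 0%, 1.90% and 3.60%, against 0.973% to 1.22% over the 4 lists. Of these 24 intervals, 2 left out the share of all peaks: TATAAA in MRISC (9.39% to 21.7%) and the CRE word in Myofibroblast (0.561% to 7.70%, from 3 peaks). The intervals were not adjusted for their number, the lists share regions and peaks of the same gene are not independent, so these 2 are descriptions only. A CArG box can contain TATAAA; no other of these words contains another, and a match describes the sequence only.

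Whether the messages met in the same cells was measured in 10262 stromal cells thinned to 3000 UMIs, as the number of cells with both genes over the number expected from their 2 shares. The median cell had 5 of the 10 messages (3 to 7 from the 5th to the 95th percentile), 30 cells had 9 and none had all 10. For most of the 45 pairs the ratio was near 1, with a median of 1.00; for the common messages it cannot stray far, since nearly every cell has them. Over all stromal cells, 5 pairs had a ratio above 1.1 and 3 were below its inverse.

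The 3 pairs among Tnc, Thbs1 and Thbs2 stood highest. Tnc and Thbs2 met in 185 cells where 90.7 were expected, a ratio of 2.04, and with the expected number summed over clusters the ratio was 1.33. Tnc and Thbs1 met in 527 cells, against 360 expected (1.46, and 1.26 within clusters), and Thbs1 and Thbs2 in 172, against 117 expected (1.47, and 1.18 within clusters). These pairs thus met more often than expected also among cells of the same cluster. Thbs1 with Cyr61, which share their leading clusters, had 1.14 and 1.08 within clusters. The pairs below expectation were near or above 1 within clusters: Tnc with Ctgf had 0.696, and 1.05 within clusters, Tnc with Sparcl1 had 0.753, and 0.995 within, and Thbs2 with Ctgf had 0.840, and 1.08 within, although with at least 2 UMIs of both genes this pair met in 1 cell, a within-cluster ratio of 0.152. Thbs1 with Ctgf showed the opposite, 1.05 over all cells and 1.20 within clusters. With the same requirement, Tnc with Thbs2 reached 3.27 on 17 cells and Thbs1 with Ctgf 1.78 within clusters on 144 cells.

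**Figure D5:**
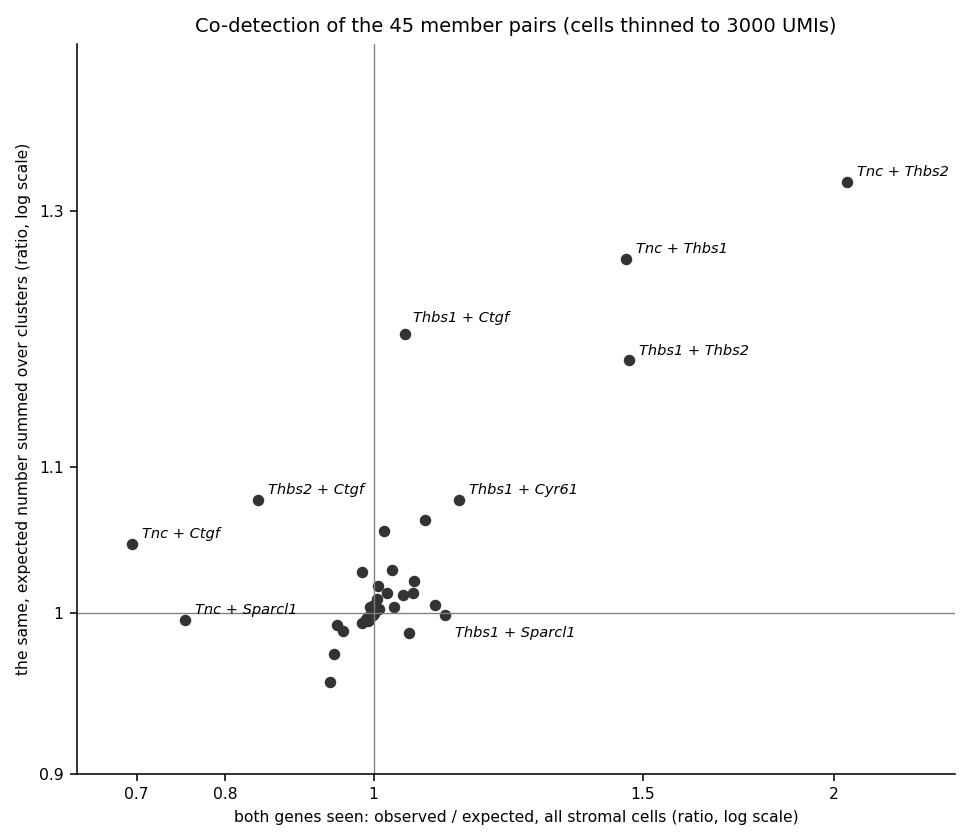
Co-detection ratio of the 45 pairs (log axes): cells with both genes over the number expected, over all stromal cells (horizontal) and with the expected number summed over clusters (vertical). Tnc with Thbs2 lies farthest out at 2.04 and 1.33, and Tnc with Ctgf lies at 0.696 over all cells but 1.05 within clusters.

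The genes whose level over the 10 clusters of at least 50 cells was most like that of each member were found by Pearson's r of log2(CPM + 1) among 5862 genes of at least 20 CPM. All points come from 1 library. For Thbs1 they were Socs3 (r = 0.974), Ier5 (0.956) and Dusp1 (0.943), and for Cyr61 Lima1 (0.952), Hspa5 (0.927) and Dusp1 (0.921). Dusp1 is an immediate early gene, and Thbs1 and Cyr61 had r = 0.879 with each other. For Ctgf they were Ltbp4 (0.959), Stard9 and Lhfpl2, Ltbp4 being a binding protein of latent TGF-beta. For Tnc they were Rbm18 (0.923), Cxcl14 (0.913) and Runx1 (0.905), and for Postn Tspan9 (0.981), Tcp11l2 and Rai2. The nearest genes to Sparc were Pcolce (0.923), an enhancer of procollagen processing, S1pr2 and Ggh, and to Mgp Sptbn1 (0.914), Pam and Tram1. Among the genes nearest to Fn1 were Clip2 (0.938) and Tulp3 (0.937). Thbs2 was nearest to Fndc1 (0.946), Irs2 and Ssc5d, and Sparcl1 to Nfat5 (0.916), Itga11 and Ccdc28b.

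Relatives of the members are read beside the 18.9% of all genes that reached 20 CPM. Of the other CCN genes 0 of 4 did, with Nov highest at 6.32 CPM. Of the other SPARC relatives 2 of 6 did, Fstl1 at 582 CPM and Spock3 at 37.2 CPM, and of the other thrombospondins 1 of 3, Thbs3 at 110 CPM. Tnxb had 273 CPM and Tgfbi, the paralog of Postn, had 162 CPM with its highest stromal level in cluster 10 at 736 CPM, and these were 2 of 4 in their list. Of the other matrix glycoproteins 8 of 10 did, led by Fbln1 at 1710 CPM and Ecm1 at 1350 CPM, while Spp1, the osteopontin gene, had 2 UMIs in all.

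The same 18.9% of all genes stands beside the receptors and regulators of the 10 proteins. Of 16 integrins and other receptors, 9 reached 20 CPM, led by Cd47 (522 CPM), a thrombospondin receptor, Itgb1 (508 CPM) and Lrp1 (257 CPM). Of 12 genes of the YAP-TEAD pathway 9 reached 20 CPM, with Axl (233 CPM), Wwtr1 (91.8 CPM) and Amotl1 (79.3 CPM) highest, and Ankrd1, another target, had 2 UMIs. Of 10 TGF-beta ligands, receptors and binding proteins 9 did, led by Ltbp4 at 884 CPM, and of 4 genes of vitamin K-dependent carboxylation 3 did, Gas6 at 261 CPM, Vkorc1 at 221 CPM and Ggcx at 32.7 CPM.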

How the data were processed

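The 10 genes and the gene lists were chosen with earlier results of these data known. The deposited single-cell files hold UMI counts as whole numbers; the authors' tools were bcl2fastq, Cell Ranger and Seurat, with build mm10, per the submitters' processing notes (software version 3.0.0, per the file header). The deposited peak lists, 1 per population, give each peak a score; bcl2fastq and bedtools are named for them, per the submitters' processing notes. The sources used here give neither the peak caller nor what the score means, so scores only rank peaks within a list.

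A barcode was kept with 500 or more genes and no more than 10% of UMIs from mitochondrial genes. Leiden clustering (scanpy 1.11.5, leidenalg 0.10.2) used 2000 variable genes without the 10 members, 30 components, 15 neighbours and resolution 0.5. A cluster of at least 50 cells was named where at least 3 markers of a type reached 20 CPM and 2-fold over other cells. A marker of that type also had to be among the 10 leading genes, with no competing type outside the fibroblast lists. Stromal clusters had at least 50 cells and no such match to endothelium, glia, interstitial cells of Cajal, epithelium, immune cells or mesothelium. This left out cluster 8 (265 cells with plasma cell and macrophage genes) and the mesothelium-like cluster 9 (89 cells). Levels are pooled over cells as CPM; their exact Poisson and the shares' exact Clopper-Pearson intervals (95%) cover counting error only. Shares were taken after thinning to 3000 UMIs, leaving out 736 shallower cells. The 3′ tag levels are not divided by length and are compared within a gene. There is 1 single-cell library, so no barcodes were shared between libraries. Named genes were the 10 members, the 3 most like each and the highest of each list; Ankrd1 and Spp1 were picked after their values were seen, and 1 gene the rule names is not reported here. Gene windows used GENCODE vM21 on GRCm38 (mm10). Promoter sequences are from RefSeq (GRCm38.p6), whose table matched 5 of the 10 genes. Promoter width, exon overlap and word counts were added after peak counts had been seen. The calculations were tested on simulated data.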

Additional observations from a re-analysis of the deposited data

How the results depend on the processing

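The summed level of the 10 genes was 10721 CPM, 10850 CPM without the 5% of cells with the most UMIs and 10793 CPM as a mean over cells. The highest stromal cluster was the one reported for all 10 genes by construction; it was the same for 4 when the 10 genes were allowed among the variable genes (Fn1 then led in cells mostly of cluster 2, Thbs1, Sparcl1 and Cyr61 in cells mostly of cluster 6, Thbs2 of cluster 10 and Sparc of cluster 1), for 8 at resolution 1.0 (not Postn and Ctgf), for 9 without the immediate early genes and for 9 as a mean over cells (not Postn). The median share of stromal cells was 43.5% at 3000 UMIs, 36.6% at 2000 and 55.2% without thinning. With at least 2 UMIs, 11 pairs in place of 5 had a ratio above 1.1. Peak numbers are given for MRISC, CD34 SP, CD138 and Myofibroblast in that order. A window of 50 kb gave 274, 295, 233 and 222 peaks (80, 110, 77 and 95 specific), the nearest start 370, 399, 379 and 286 (108, 135, 153 and 142 specific), and peaks above the median score 90, 76, 64 and 70 (14, 16, 9 and 23 specific). With equally long lists of best-scored peaks, CD138 had 13 specific peaks in place of 26, and with sharing defined as 50% mutual overlap 84, 116, 63 and 76 were specific. All 10 genes kept a promoter peak in every list at 2 kb and above the median score. The cause of these shifts was not tested.

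No paired analysis was possible because each population has 1 pooled peak list. Leaving out a replicate was not run for the same reason. Depth limits Thbs2 most, and counting intervals leave out the spread between animals.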
